A study of Mus musculus with 15 samples.

Results

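Cells differentiated towards the presomitic mesoderm in RDL medium, and sorted at day 4 for a fluorescent reporter of Msgn1, were compared with the undifferentiated mouse embryonic stem (ES) cells of the same line. The members were chosen by label alone: the 3 arrays labelled as Msgn1-positive RDL cells of day 4 and the 3 labelled as undifferentiated cells of day 0, which make 6 of the 15 arrays of the series. Both groups came from ES cell line E14, of strain 129P2. The RDL cells had first been kept in N2B27 medium with 1% knock-out serum replacement and BMP4 at 10 ng/ml for 2 days. They were then moved to a DMEM-based medium with 15% serum replacement, recombinant Rspo3 at 10 ng/ml, 0.5% DMSO and the BMP receptor inhibitor LDN193189 at 0.1 µM. The protocol gives 4 days in RDL medium after those 2 days while the cells are labelled day 4, so the time they had spent in RDL medium is unclear. Rspo3 is a secreted protein that strengthens Wnt signalling, and the Msgn1 reporter, labelled Msgn1repV, marks cells in which Msgn1 is transcribed. The ES cells were unsorted and had been grown with 15% fetal bovine serum, leukaemia inhibitory factor (LIF) at 1500 U/ml and the inhibitors CHIRON99021 and PD0325901 (2i), which block GSK3 and MEK. They were maintained on feeders of inactivated mouse embryonic fibroblasts and moved once to gelatin before differentiation, and the labels do not say from which plates the arrayed ES cells came. Differentiation, serum, LIF, 2i and the sort all differ between the groups at once, so their parts in any difference cannot be told apart.

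The presomitic mesoderm is the band of unsegmented tissue at the tail end of the vertebrate embryo from which somites form, and somites give rise to vertebrae, skeletal muscle and dermis. It is renewed from the primitive streak and tail bud, held in an immature state by Wnt and FGF signals from the posterior end, and opposed by retinoic acid made in the somites. Oscillating Notch, Wnt and FGF target genes, the segmentation clock, time the formation of each somite, and Hox genes assign positions along the axis. ES cells in 2i and LIF hold a naive pluripotent state maintained by a network of factors around Pou5f1, Sox2 and Nanog.

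Msgn1 itself was read first. This basic helix-loop-helix factor of the posterior presomitic mesoderm had signals of 241, 198 and 148 on the RDL arrays, against 24.6, 35.9 and 27.0 on the ES arrays. All RDL arrays were higher than all ES arrays, with RDL replicate 1 the highest. Signals are the MAS5 intensities deposited for each probe set on a linear scale, and a gene is represented by its brightest probe set carrying that symbol alone. Differences are given on the log2(signal + c) scale as RDL minus ES with their SE (standard error) from limma, n = 3 arrays each. The constant c was 12.6 signal units, so changes of genes that were dim in 1 group are understated. Msgn1 differed by 2.30 ± 0.16 (adjusted p = 7.65e-08, limma). The RDL cells had been sorted for a reporter of this gene, so the sort selected for this direction. The values of Msgn1 are therefore a check of the label and not a separate result. Levels of different probe sets cannot be set against each other, and in a bulk sample fewer cells of a type and less RNA per cell cannot be told apart.

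The arrays were alike in scale, with medians between 29.6 and 30.8 in RDL cells and between 29.4 and 29.9 in ES cells. The mean correlation of each array with its group mates was at least 0.994. One measure of RNA quality moved with the group: the ratio of 3' to 5' actin signal was 1.43, 1.53 and 1.60 on the RDL arrays, against 1.77, 1.80 and 1.85 on the ES arrays. The same ratio for Gapdh was 1.03 to 1.06 in RDL cells and 1.04 to 1.11 in ES cells. The part of RNA quality in the differences that follow was not tested. RDL replicate 3 stood at 1 end of some gene groups, as described for the Id genes.

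Of 11952 genes tested, 3838 were higher in RDL cells (32.1%) and 4135 were lower (34.6%) at an adjusted p under 0.05, so that 66.7% were called, and of 23760 probe sets tested singly 62.2% were called. Differences of at least 2-fold were fewer, with 1187 genes higher (9.93%) and 1256 lower (10.5%). Those of at least 16-fold comprised 72 genes higher (0.602%) and 63 lower (0.527%). The median difference over all genes tested was -0.02, and the 2 groups of arrays did not overlap for 70.7% of genes. A count of called members therefore says little by itself, and is given below with the median difference of its list (on the log2 scale). The lists were written with earlier results of these data known, and genes bright in only 1 group pass the filter because they differ, so these counts are descriptions. The plot of mean signals shows how far the 2 sides of the change lay from the diagonal.

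**Figure D1:**
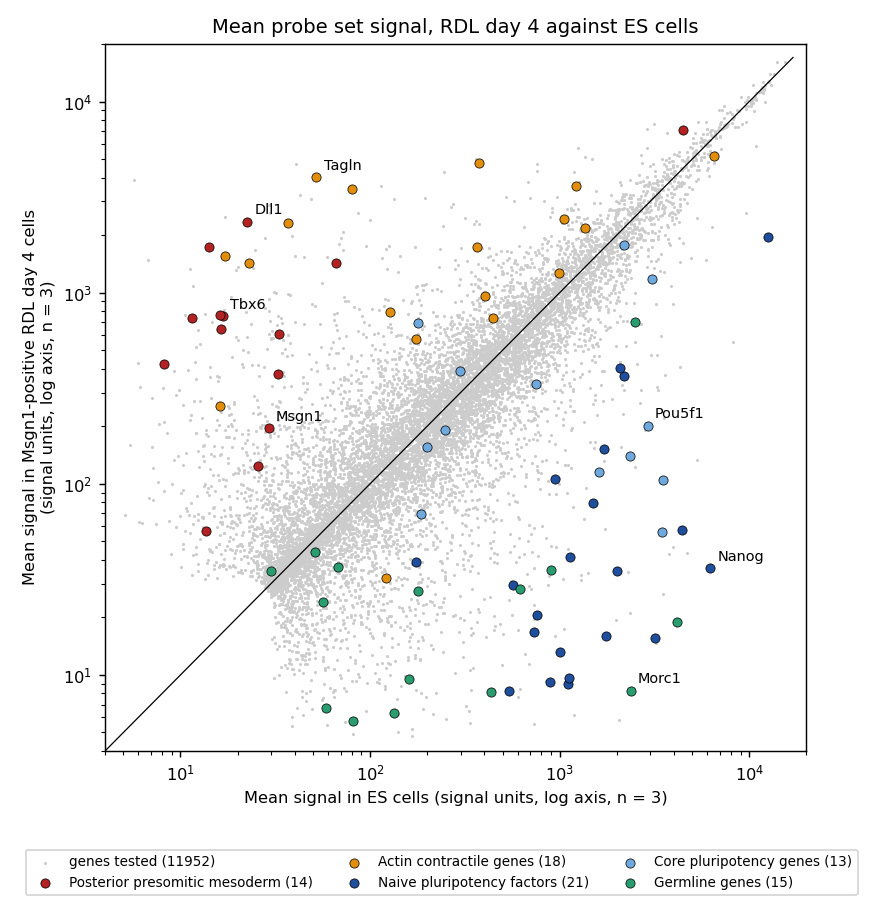
Mean signal of each of the 11952 genes tested in Msgn1-positive RDL day 4 cells (vertical, n = 3 arrays) against ES cells (horizontal, n = 3 arrays), both on log axes in signal units. The line marks equal signal. Posterior presomitic genes such as Dll1 (2353 in RDL cells, 22.5 in ES cells) lie far above it, and pluripotency genes such as Nanog (36.1 in RDL cells, 6205 in ES cells) lie far below it.

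Some genes were among the dimmest of an array in 1 group and among the brightest in the other. In all, 27 genes were under their array's 50th percentile on every ES array and above the 90th on every RDL array. The largest of these differences was that of Aplnr, the G protein-coupled receptor of the apelin peptides. Aplnr had signals of 4006, 3735 and 3930 in RDL cells, against 6.22, 5.49 and 5.30 in ES cells, a difference of 7.74 ± 0.08. Of its 2 ligand genes Apela went the other way, with 74.0, 76.4 and 77.8 in RDL cells and 1149, 1144 and 1221 in ES cells (-3.74 ± 0.07). The other ligand gene, Apln, was slightly higher, with 134, 130 and 124 in RDL cells and 106, 103 and 96.0 in ES cells (0.31 ± 0.09). The groups were wide apart for Aplnr and Apela and close for Apln. The 27 also held Prkd1, a serine/threonine kinase (5.50 ± 0.09), Tshz1, a zinc finger factor (4.96 ± 0.12), and Fndc3c1 (5.37 ± 0.15). The remaining leading members, Egr1, Dll1, Rspo3, Actc1, Hoxb1, Myl9, Cdh2, Sox11, Foxc1, Hoxa5 and Lhx1, are described with their groups. Averaged over all probe sets of a gene, the difference was 4.96 for Aplnr, -2.08 for Apela and 3.81 for Rspo3.

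In the opposite direction, 29 genes were under the median of every RDL array and above the 90th percentile of every ES array. Rpl39l, a ribosomal protein paralogue used in the male germline, led them with 16.9, 21.3 and 18.4 in RDL cells, against 4387, 4400 and 3655 in ES cells (-7.04 ± 0.09). Trap1a, an X-linked antigen gene, had 13.5, 13.2 and 17.4 in RDL cells and 3193, 3409 and 3053 in ES cells (-6.89 ± 0.09). Ooep, a gene of the oocyte and early embryo, had 29.1, 25.2 and 25.7 in RDL cells and 3474, 3584 and 3490 in ES cells (-6.49 ± 0.07). For these 3 genes the RDL arrays lay near the level of the array medians or below it. Crxos, a homeobox gene (-6.81 ± 0.09), Mageb16 (-5.96 ± 0.10), Calcoco2 (-5.99 ± 0.11), Zfp936 (-5.28 ± 0.09) and Gtsf1l (-5.15 ± 0.09) belonged to the same set. Fam25c (-6.39 ± 0.07), Phf11d (-6.08 ± 0.11), the junctional adhesion gene Jam2 (-6.07 ± 0.07), the myosin light chain gene Mylpf (-5.61 ± 0.07), Mcf2 (-5.34 ± 0.12) and the mitochondrial gene Chchd10 (-5.17 ± 0.07) were among the 25 largest decreases.

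All 21 naive pluripotency factors on the list were tested and all 21 were lower in RDL cells, with a median difference of -4.66. Of the 21, 9 had passed the filter through the ES arrays alone. Nanog, a homeodomain factor of the core network, had 36.6, 31.6 and 40.0 in RDL cells, against 6343, 6313 and 5958 in ES cells (-7.00 ± 0.08, adjusted p = 4.49e-14, limma). Tfcp2l1, a target of LIF signalling, had 12.9, 14.5 and 19.5 in RDL cells and 3188, 2925 and 3483 in ES cells (-6.83 ± 0.10). The orphan nuclear receptor gene Esrrb had 8.83, 8.38 and 9.63 in RDL cells and 1222, 1014 and 1064 in ES cells (-5.69 ± 0.09). No RDL array came near an ES array for these 3 factors. Zfp42, also called Rex1 (-6.01 ± 0.16), Fbxo15 (-5.94 ± 0.08), Nr0b1 (-5.67 ± 0.08), Dppa2 (-5.41 ± 0.08), Tcl1, a coactivator of AKT (-5.37 ± 0.08), and the nuclear receptor gene Nr5a2 (-5.30 ± 0.08) followed. As means of their probe sets, the values were -2.29 for Tfcp2l1, -3.27 for Esrrb and -3.32 for Nr5a2.

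The naive factors kept unequal shares of their ES signal. Relative to the ES mean, the median naive factor stood at 2.03%, 2.41% and 2.19% on the 3 RDL arrays, which are upper limits where the RDL signal was near the array median. Dppa5a, an RNA-binding protein of ES cells, kept 15.6% of its ES mean, with 2012, 2008 and 1868 in RDL cells and 12579, 12661 and 12478 in ES cells (-2.67 ± 0.05). The Krüppel-like factor gene Klf5 kept 19.6%, with 309, 526 and 382 in RDL cells and 2109, 1878 and 2216 in ES cells (-2.34 ± 0.15). Dppa5a and Klf5 were chosen after their values were seen. On each RDL array both stayed far above the share of the median naive factor. Over all probe sets on average, the difference was -1.30 for Klf5.

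Among 13 tested core pluripotency genes 10 were lower, 2 were higher and 1 did not pass, and the median difference was -1.27. Sox2 had 43.5, 61.8 and 62.3 in RDL cells, against 3781, 3700 and 2886 in ES cells (-5.66 ± 0.13). Pou5f1, which encodes the POU factor Oct4, had 176, 215 and 213 in RDL cells, against 2702, 2753 and 3270 in ES cells (-3.77 ± 0.09). Relative to the ES mean, Pou5f1 therefore stood at 6.94%. The shares of Sox2 (1.62%) and Nanog (0.581%) are upper limits, because signals this close to the array medians hold background. L1td1, an RNA-binding protein gene derived from a transposon (-4.90 ± 0.08), the growth factor gene Fgf4 (-3.94 ± 0.08) and the Nodal co-receptor gene Tdgf1 (-3.67 ± 0.08) fell as well. Lin28a, which blocks maturation of let-7 microRNAs, rose instead, with 545, 831 and 716 in RDL cells and 172, 173 and 189 in ES cells (1.88 ± 0.13). Sall1, a zinc finger factor, was slightly higher in RDL cells (0.35 ± 0.11), while Lefty1, a Nodal antagonist, did not pass the test (-0.35). Calls were not kept for Sall1 without ES replicate 1 or RDL replicate 2 (0.23 to 0.31). Calls ended with all 15 arrays in the fit for Sall1.

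Genes of the LIF and STAT3 pathway were lower in 9 of 10 cases, with a median of -1.31, and none was higher. The receptor gene Lifr had 75, 117 and 107 in RDL cells, against 428, 415 and 362 in ES cells (-1.90 ± 0.13). Socs3, the feedback inhibitor induced by STAT3, had 59.8, 130 and 155 in RDL cells, against 380, 327 and 350 in ES cells (-1.60 ± 0.24). Stat3 itself (-1.02 ± 0.11) fell by less than Klf4 (-2.54 ± 0.13) or Bcl3 (-2.13 ± 0.08), and the kinase gene Jak1 did not pass (-0.08). Of 24 germline genes matched, 15 were tested, 13 of them were lower and none was higher, with a median of -2.35. Of the 15 tested, 9 had passed the filter through the ES arrays alone. Besides Rpl39l they included Morc1, which silences transposons in male germ cells (8.28 in RDL cells and 2370 in ES cells on average, -6.83 ± 0.08). Dazl, a translational regulator of germ cells, had 8.03, 8.02 and 8.38 in RDL cells, against 501, 527 and 272 in ES cells (-4.37 ± 0.19). The ES arrays spread more for Dazl than the RDL arrays did, and ES replicate 3 was the lowest of them. The meiotic genes Hsf2bp (-4.25 ± 0.09) and Sycp3 (-2.97 ± 0.10) and Tex19.1, which guards against transposons (-3.95 ± 0.11), were also lower. Asz1 (-0.17) and Tdrkh (0.16) did not pass. With all probe sets of a gene averaged, differences were -1.02 for Lifr, -0.39 for Stat3 and -2.34 for Hsf2bp. With c at 50 differences were -1.34 for Bcl3 and -1.82 for Sycp3.

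Genes of the primed epiblast, the state that follows naive pluripotency, did not share a direction: of 13 tested, 7 were higher and 4 lower, with a median of 0.29. The SoxC factors Sox11 (1343 in RDL cells and 24.3 in ES cells on average, 5.20 ± 0.09) and Sox4 (3113 in RDL cells and 194 in ES cells, 3.92 ± 0.07) rose, as did the forkhead gene Foxp1 (3.26 ± 0.08). Otx2, a homeobox gene of the anterior epiblast, had 8.88, 8.31 and 8.12 in RDL cells, against 124, 130 and 105 in ES cells (-2.65 ± 0.09). Zic5 (-2.29 ± 0.12), Foxd3 (-1.05) and Nkx1-2 (-0.24) were lower too, and Pou3f1 (0.08) and Sox3 (0.00) did not pass. The mean over probe sets gave 1.77 for Sox4, -1.52 for Zic5 and -0.11 for Nkx1-2 (call lost). A constant c of 50 gave -1.53 for Otx2 and -0.50 for Foxd3. The test was no longer passed by Nkx1-2 without ES replicate 1 or ES replicate 3 or RDL replicate 2 or RDL replicate 3 (-0.25 to -0.19). There was no call with all 15 arrays in the fit or the CDL arrays added for Nkx1-2.

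Of 12 tested genes of the primitive streak and tail bud, 10 were higher in RDL cells and 1 was lower, with a median of 2.20. Lhx1, a LIM homeobox gene of early mesoderm, had 808, 875 and 692 in RDL cells, against 21.3, 22.8 and 22.3 in ES cells (4.53 ± 0.10). Mixl1, a homeobox gene of mesendoderm, had 726, 647 and 765 in RDL cells, against 34.0, 28.5 and 26.2 in ES cells (4.11 ± 0.10). Eomes, a T-box gene of the early streak chosen after its values were seen, differed far less, with 53.9, 78.4 and 115 in RDL cells and 50.4, 43.5 and 58.2 in ES cells (0.54 ± 0.19). The groups overlapped for Eomes and not for Lhx1 or Mixl1. Sp8 (2.89 ± 0.14), Evx1 (2.66 ± 0.11), the Wnt target Sp5 (2.49 ± 0.16) and Fst, which encodes follistatin (2.35 ± 0.09), rose. Nkx1-2 was lower (-0.24), and Sall3 did not pass (0.02). The streak gene T (Brachyury) was not among the genes read. At c = 50 the difference was 1.92 for Sp8. The threshold was missed by Eomes without ES replicate 2 or RDL replicate 2 or RDL replicate 3 (0.30 to 0.55). Also lost were calls with all 15 arrays in the fit or the CDL arrays added for Eomes.

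The posterior presomitic mesoderm list gave the reverse picture of the naive factors. All 14 tested members were higher in RDL cells, with a median of 4.29, and 9 of the 14 had passed the filter through the RDL arrays alone. Dll1, the main Notch ligand of the presomitic mesoderm, had 2354, 2519 and 2186 in RDL cells, against 20.5, 25.2 and 21.7 in ES cells (6.08 ± 0.09). The transcript of Rspo3, whose protein was also in the medium, had 1824, 1642 and 1735 in RDL cells, against 13.9, 13.2 and 15.5 in ES cells (6.02 ± 0.08). Tbx6, the T-box factor that directs cells to paraxial mesoderm, had 863, 775 and 616 in RDL cells, against 16.5, 14.1 and 19.5 in ES cells (4.69 ± 0.12). All 3 were separated by more than an order of magnitude, and Tbx6 followed Msgn1 in being lowest in RDL replicate 3. Pcdh8, a protocadherin of segmenting mesoderm (4.96 ± 0.15), Fgf8 (4.76 ± 0.10) and Greb1 (4.51 ± 0.11) rose as well. On the ES arrays the median member stood at 3.45%, 3.30% and 3.76% of its RDL mean, again upper limits where the ES signal was dim. Taking the mean of all probe sets gave 2.30 for Greb1.

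**Figure D2:**
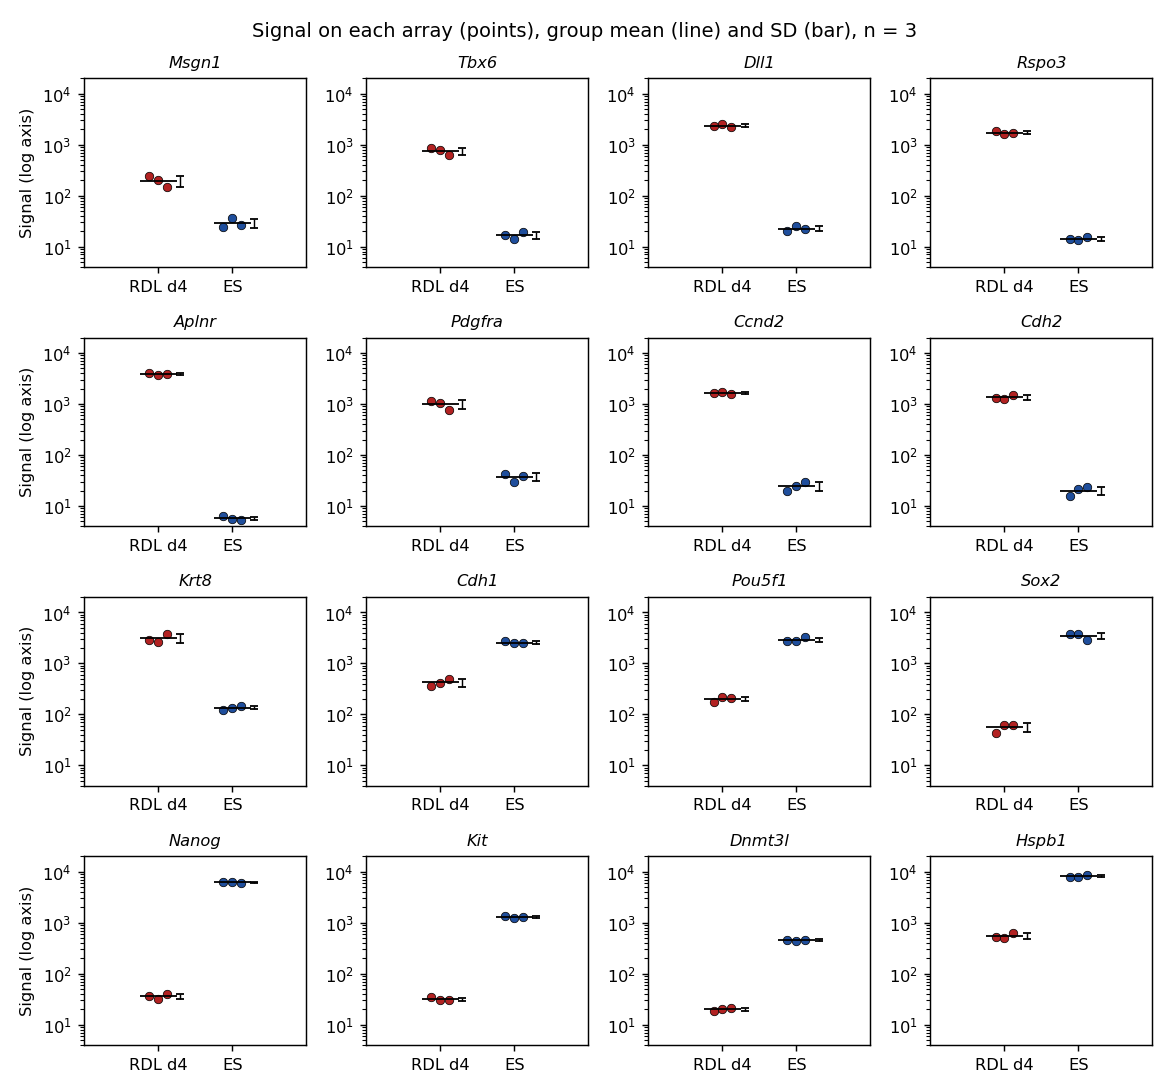
Signal of 16 genes on each array, in Msgn1-positive RDL day 4 cells (left, red) and ES cells (right, blue), on log axes. Points are arrays, horizontal lines group means and vertical bars SDs, n = 3 each; no gene shown has overlapping groups, and Msgn1 (196 in RDL cells, 29.1 in ES cells) is the nearest to overlap among the genes that rose.

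Anterior presomitic and somite genes also rose in most cases, with 12 higher and 3 lower of 16 tested and a median of 1.70. Foxc1, a forkhead factor of paraxial mesoderm, had 1208, 1422 and 1368 in RDL cells, against 10.8, 11.3 and 11.4 in ES cells (5.82 ± 0.09). Its paralogue Foxc2 had 802, 698 and 779 in RDL cells, against 11.5, 10.8 and 9.25 in ES cells (5.06 ± 0.09). Meox1, a homeobox gene of the somite, had 662, 618 and 463 in RDL cells, against 24.6, 26.4 and 40.8 in ES cells (3.78 ± 0.16). These 3 genes showed no overlap. Nr2f2 (2.78 ± 0.11) and Ripply2, a repressor at the segment boundary (2.02 ± 0.11), rose less. Tbx18 (-0.66), Epha4 (-0.66) and Eya1 (-0.26) fell, and Sim1 did not pass (0.20). Lmo2, an adaptor protein best known from blood progenitors, was among the 25 largest increases (5.62 ± 0.17), as were Car3, a carbonic anhydrase (6.13 ± 0.11), Greb1l (5.88 ± 0.07) and Hoxb5os (5.95 ± 0.11). Probe set means gave 0.91 for Nr2f2, -0.34 for Epha4, -0.07 for Eya1 (call lost) and 3.0 for Car3. Raising c to 50 gave 1.01 for Ripply2 and -0.41 for Tbx18. The test was no longer passed by Eya1 without ES replicate 1 or ES replicate 2 or RDL replicate 1 or RDL replicate 3 (-0.26 to -0.20). Further calls were lost with all 15 arrays in the fit or the CDL arrays added for Eya1.

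Notch ligands and receptors were higher in 7 of 9 cases, with none lower and a median of 1.23. After Dll1 came Dll3, a ligand that acts within the cell, with 1385, 1529 and 1367 in RDL cells and 67.1, 62.5 and 67.8 in ES cells (4.20 ± 0.08). The receptor gene Notch1 had 1504, 1456 and 1202 in RDL cells, against 292, 285 and 300 in ES cells (2.19 ± 0.09). Notch2 (1.70 ± 0.08), Notch3 (1.23 ± 0.10) and Jag1 (0.97 ± 0.10) also rose. Dll4 (-0.03) and Jag2 (-0.14) did not pass. Of 17 Notch modulators and targets 12 were higher and 3 lower, with a median of 0.80. Nrarp, a feedback inhibitor of Notch, had 1466, 1912 and 2423 in RDL cells, against 69.7, 69.0 and 72.4 in ES cells (4.52 ± 0.14). RDL replicate 1 was the lowest and replicate 3 the highest for Nrarp, for Hey1 with 149, 209 and 288 in RDL cells, and for Hes1 with 228, 439 and 538. The list also holds Id1 and Id2, and its summed signal lay between 5779 and 11360 on the RDL arrays. Hes7, the oscillating repressor of the clock, had 661, 554 and 616 in RDL cells, against 34.4, 24.1 and 40.9 in ES cells (3.78 ± 0.13). Lfng, the glycosyltransferase that modifies Notch in the clock (1.83 ± 0.11), and Hey1 (2.29 ± 0.18) were higher. Rbpj, the DNA-binding effector of the pathway, fell, with 346, 366 and 398 in RDL cells and 888, 867 and 880 in ES cells (-1.22 ± 0.07). The other fringe genes Rfng (-0.94) and Mfng (-0.39) fell, and Hes5 (-0.13) and Heyl (-0.15) did not pass. When probe sets were averaged, differences were 0.82 for Notch2, 0.61 for Jag1, 0.99 for Lfng and -0.62 for Rfng. Set to 50, the constant c gave 1.20 for Lfng and -0.25 for Mfng.

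Of 11 Wnt ligands tested 6 were higher and none lower, with a median of 0.53. Wnt5a, a ligand of tail bud outgrowth, had 375, 491 and 401 in RDL cells, against 7.86, 8.69 and 8.06 in ES cells (4.38 ± 0.11). Wnt3a, the canonical ligand of the tail bud, differed by only 0.53 ± 0.09, with 55.9, 57.1 and 46.1 in RDL cells and 32.6, 31.3 and 34.3 in ES cells. Wnt6 (1.94 ± 0.12), Wnt8a (1.48 ± 0.08), Wnt5b (1.21 ± 0.11) and Wnt4 (0.71 ± 0.09) rose, and Wnt7a, Wnt7b, Wnt10b, Wnt11 and Wnt16 did not pass. Among 18 receptors and R-spondin components 11 were higher and 4 lower, with a median of 0.42. The Frizzled receptor genes separated: Fzd2 (3.06 ± 0.08), Fzd3 (2.68 ± 0.11), Fzd7 (2.39 ± 0.12) and Fzd1 (2.08 ± 0.12) rose. Fzd5 fell, with 16.4, 15.9 and 19.3 in RDL cells and 633, 535 and 634 in ES cells (-4.36 ± 0.10). Fzd8 (-0.79), Fzd9 (-0.35) and Lrp5 (-0.20) fell by less, and Fzd4 (0.08), Rspo2 (-0.09) and the R-spondin receptor gene Lgr4 (-0.21) did not pass. Averaged over all probe sets of a gene, the difference was 2.51 for Wnt5a, 1.17 for Fzd3, 1.30 for Fzd7, 1.11 for Fzd1, -2.63 for Fzd5 and -0.43 for Fzd8. Under c = 50 differences were 0.32 for Wnt3a, 0.79 for Wnt8a, 0.77 for Wnt5b, 0.41 for Wnt4, -0.46 for Fzd8, -0.21 for Fzd9 and -0.11 for Lrp5. Calls were not kept for Lrp5 without ES replicate 1 or ES replicate 2 or RDL replicate 1 or RDL replicate 2 (-0.20 to -0.17). Calls ended with no filter on dim genes for Lrp5.

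Downstream Wnt genes rose in 8 of 13 cases and fell in 3, with a median of 0.40. Lef1, a transcription factor that partners β-catenin, had 1568, 1584 and 1514 in RDL cells, against 34.8, 34.0 and 51.2 in ES cells (4.91 ± 0.11). The feedback inhibitor gene Nkd1 had 285, 359 and 289 in RDL cells, against 9.53, 11.2 and 8.64 in ES cells (3.85 ± 0.10). Nkd2 (2.75 ± 0.10) and Gsk3b, the kinase of the β-catenin destruction complex (0.92 ± 0.06), were also higher. Axin2, a common readout of canonical Wnt signalling that was chosen after its values were seen, had 390, 568 and 336 in RDL cells and 217, 223 and 232 in ES cells (0.88 ± 0.15). Notum, which encodes an enzyme that inactivates Wnt proteins, fell, with 52.0, 52.5 and 46.6 in RDL cells and 220, 237 and 245 in ES cells (-1.97 ± 0.09). The feedback genes therefore differed in opposite directions. The ES cells were themselves kept with a GSK3 inhibitor, whose part was not tested. Tcf7l1 (-0.49) and Apc (-0.45) fell, and Tcf7l2 (0.04) and Apcdd1 (0.19) did not pass. Of 9 secreted antagonists 5 were higher and 3 lower, with a median of 0.66: Frzb (4.70 ± 0.13), Dact1 (3.48 ± 0.13) and Dkk1 (1.83 ± 0.19) rose, while Sfrp1 (-1.22 ± 0.10), Dact2 (-0.83 ± 0.18) and Sfrp4 (-0.77 ± 0.10) fell. The list includes Dact1 and Dact2, whose proteins act inside the cell, and Sfrp5 did not pass (-0.03). As means of their probe sets, the values were 1.63 for Nkd1, 1.76 for Nkd2, 0.49 for Axin2, -0.24 for Apc and -0.35 for Dact2. For c of 50 the values were 1.19 for Dkk1 and -0.45 for Sfrp4.

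The FGF ligands switched. Fgf8, the posterior FGF of the presomitic mesoderm, had 695, 762 and 839 in RDL cells, against 14.9, 18.3 and 15.0 in ES cells (4.76 ± 0.10). Fgf4 had 149, 143 and 130 in RDL cells, against 2301, 2228 and 2481 in ES cells (-3.94 ± 0.08). Both ligand genes were separated by more than the spread of either group, in opposite directions. In all 9 of 12 tested FGF genes were higher and 1 was lower, with a median of 1.14. Fgf13 (3.01 ± 0.13), Fgf3 (1.68 ± 0.12), Fgf15 (1.60 ± 0.15) and the receptor gene Fgfr1 (1.59 ± 0.07) rose, and Fgfr3 (0.02) and Fgfr4 (-0.03) did not pass. Targets and feedback inhibitors of ERK, the kinase that FGF activates, were higher in 11 of 15 cases and lower in 2, with a median of 1.36. Over all probe sets on average, the difference was 1.58 for Fgf13.

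Egr1, an immediate early transcription factor, had 2273, 2703 and 2531 in RDL cells, against 14.5, 16.8 and 19.9 in ES cells (6.41 ± 0.10). Fos, another, had 3140, 3547 and 2588 in RDL cells, against 54.5, 45.1 and 47.5 in ES cells (5.65 ± 0.11). The ERK phosphatase gene Dusp6 had 2783, 2556 and 1865 in RDL cells, against 93.2, 108 and 97.9 in ES cells (4.41 ± 0.13). ES cells were grown with the MEK inhibitor PD0325901, which acts just above ERK, and RDL cells were not. Serum, LIF, differentiation and the sort differed as well, so the part of the inhibitor was not tested and cannot be told apart. Dusp4 (4.13 ± 0.12), Il17rd (2.45 ± 0.06) and Dusp5 (1.60 ± 0.16) rose. Etv5, an ETS factor usually induced by FGF, fell, with 503, 529 and 493 in RDL cells and 1446, 1412 and 1363 in ES cells (-1.45 ± 0.06). Ier3 was also lower (-0.66), and Dusp1 (0.23) and Etv4 (0.16) did not pass. Using 50 as c gave -0.34 for Ier3.

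Retinoic acid genes were higher in 8 of 14 cases and lower in 1, with a median of 0.89. Aldh1a2, which makes retinoic acid, had 1995, 1872 and 2056 in RDL cells, against 30.1, 47.1 and 39.7 in ES cells (5.28 ± 0.11). Cyp26a1, which breaks it down in the tail bud, had 412, 362 and 350 in RDL cells, against 32.1, 38.7 and 27.9 in ES cells (3.09 ± 0.11). The genes for synthesis and for clearance were thus both higher in the sorted population. The binding protein genes Crabp2 (4.47 ± 0.09) and Crabp1 (3.23 ± 0.09), Rdh10, which supplies retinaldehyde (2.43 ± 0.13), and the receptor gene Rarb (1.65 ± 0.13) rose. Rarg was lower (-0.31), and Dhrs3, Cyp26b1, Rara, Rxra and Rxrg did not pass. With c at 50 differences were 0.93 for Rarb.

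BMP response genes and antagonists were higher in 13 of 19 cases and lower in 2, with a median of 0.77, in cells that had been kept with a BMP receptor inhibitor. The RDL replicates were spread widely for the Id genes. Id1, a direct BMP target, had 560, 1348 and 3460 in RDL cells, against 65.0, 60.2 and 80.8 in ES cells (4.11 ± 0.46). Id3 had 448, 739 and 1520 in RDL cells, against 74.8, 72.2 and 81.5 in ES cells (3.19 ± 0.31), and Id2 had 407, 613 and 1530 in RDL cells, against 120, 115 and 119 in ES cells (2.50 ± 0.34). RDL replicate 1 was the lowest and replicate 3 the highest for all 3 Id genes, and for Msx1 with 247, 306 and 415 in RDL cells (2.79 ± 0.16). The 2 genes of the list that fell had the same order among the RDL arrays. Id4 had 27.4, 54.1 and 124 in RDL cells, against 300.0, 284 and 331 in ES cells (-2.15 ± 0.32), and the inhibitory Smad gene Smad7 had 139, 181 and 320 in RDL cells, against 681, 706 and 724 in ES cells (-1.75 ± 0.21). Without RDL replicate 3, Id1 stood at 3.45, Id3 at 2.73 and Id4 at -2.62. Smoc1 (2.19 ± 0.09) rose evenly across replicates, and Msx2, Smad6, Bambi and Chrd did not pass. With all probe sets of a gene averaged, differences were 1.86 for Msx1.

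Nodal pathway genes were split, with 4 higher and 5 lower of 10 tested and a median of -0.35. The co-receptor gene Tdgf1 was described above, and Nodal itself had 315, 321 and 361 in RDL cells, against 693, 723 and 824 in ES cells (-1.14 ± 0.09). The receptor gene Acvr2b (1.36 ± 0.11) and the effector genes Smad3 (1.08 ± 0.08), Smad2 (0.76 ± 0.09) and Foxh1 (0.76 ± 0.09) rose. In the Hedgehog pathway 5 of 9 tested genes were higher and 1 lower, with a median of 0.78. The changes lay in receptors and transcription factors: Gas1, a co-receptor, had 1702, 1688 and 1698 in RDL cells, against 158, 103 and 101 in ES cells (3.70 ± 0.13). Gli3, mainly a repressor, rose (2.89 ± 0.09) and Gli2, mainly an activator, fell (-1.68 ± 0.09). Smo (2.34 ± 0.11), Boc (0.94 ± 0.09) and Cdon (0.78 ± 0.09) rose. The ligand gene Shh (-0.09) and the target genes Gli1 (0.04) and Ptch1 (-0.17) did not pass. The mean over probe sets gave 0.75 for Acvr2b, 0.38 for Smad3, 0.46 for Smad2, 2.18 for Gas1, 1.79 for Gli3, 0.61 for Boc and 0.41 for Cdon. A constant c of 50 gave 0.59 for Boc.

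Several receptor and ligand genes changed in opposite directions within a pair. Kit, the receptor of stem cell factor, had 34.1, 30.2 and 30.2 in RDL cells, against 1387, 1252 and 1268 in ES cells (-4.90 ± 0.08). Its ligand gene Kitl had 619, 545 and 655 in RDL cells, against 28.8, 32.2 and 27.0 in ES cells (3.88 ± 0.10). Pdgfra, a receptor of paraxial mesoderm, had 1136, 1051 and 763 in RDL cells, against 42.8, 29.6 and 38.4 in ES cells (4.32 ± 0.15). The ligand genes Pdgfa (-2.28) and Pdgfc (-1.96) fell, so that for both families 1 side of the pair was high in each group. Igf2, an imprinted growth factor gene, had 4431, 5131 and 4613 in RDL cells, against 42.8, 36.0 and 42.6 in ES cells (6.48 ± 0.08). Igfbp4 (2.68 ± 0.10) rose, and Igfbp2 (-3.66 ± 0.15) and Erbb3 (-2.14) fell. Of all 18 tested genes of this list 11 were higher and 5 lower, with a median of 0.89, and Igfbp5 (-0.14) and Kdr (0.05) did not pass. Taking the mean of all probe sets gave -2.85 for Kit, 1.92 for Kitl, 2.79 for Pdgfra, 3.68 for Igf2 and -1.15 for Erbb3.

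Among 8 guidance genes of the chemokine, apelin and sphingosine families 6 were higher and 2 lower, with a median of 1.16. S1pr3, a sphingosine receptor gene, rose (4.37 ± 0.13), and so did the chemokine gene Cxcl12 (1.94 ± 0.12). Its receptor gene Cxcr4 varied between RDL replicates, with 140, 280 and 86.6 in RDL cells and 23.3, 19.7 and 24.0 in ES cells (2.23 ± 0.28), while the scavenging receptor gene Ackr3 fell (-1.34 ± 0.14). Eph receptors and ephrins were higher in 12 of 15 cases and lower in 3, with a median of 1.05. Efnb2, the ephrin of the somite boundary, had 601, 764 and 670 in RDL cells, against 72.9, 61.4 and 63.8 in ES cells (3.13 ± 0.10). Epha1 (1.93 ± 0.17), Efna1 (1.71 ± 0.17), Ephb4 (1.30 ± 0.11) and Efnb3 (1.25 ± 0.14) rose. Epha2 fell (-1.51 ± 0.11), with Epha4 and Ephb3 (-0.65). Of 20 semaphorin, plexin, netrin and slit genes 17 were higher and 1 was lower, with a median of 0.82. They were led by the plexin gene Plxna2, with 727, 668 and 652 in RDL cells and 23.6, 23.2 and 23.6 in ES cells (4.27 ± 0.08). Sema6d (2.91 ± 0.12), Sema3c (2.32 ± 0.12), Sema6a (2.30 ± 0.13), Slit3 (1.89 ± 0.12) and Plxnd1 (1.52 ± 0.11) followed. Sema4a fell (-0.80), and Sema3f (-0.16) and Dcc (0.01) did not pass. Probe set means gave 2.06 for S1pr3, 1.15 for Cxcl12, 1.52 for Efnb2, 1.00 for Epha1, 0.75 for Sema6d, 1.39 for Sema3c and 1.16 for Sema6a. At c = 50 the difference was 1.22 for Cxcl12, 1.12 for Epha1, 1.28 for Sema3c, 1.40 for Sema6a, 0.98 for Plxnd1 and -0.40 for Sema4a.

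The cadherins were exchanged. Cdh2, or N-cadherin, had 1289, 1264 and 1530 in RDL cells, against 15.8, 21.1 and 23.1 in ES cells (5.40 ± 0.11). Cdh1, or E-cadherin, had 358, 411 and 499 in RDL cells, against 2750, 2471 and 2460 in ES cells (-2.57 ± 0.10), which leaves 16.5% of its ES mean. Other epithelial genes did not all follow Cdh1: of 23 tested 13 were lower and 7 higher, with a median of -0.32. Krt8, a simple epithelial keratin, had 2824, 2667 and 3806 in RDL cells, against 124, 135 and 144 in ES cells (4.39 ± 0.12). Its partner keratin genes Krt18 (4.28 ± 0.11) and Krt19 (4.21 ± 0.09) and the desmosomal gene Dsp (3.33 ± 0.07) rose, all without overlap. Cldn4 fell (-1.78 ± 0.16). Lad1 (1.23), Prss8 (0.34) and Cldn6 (0.33) were higher, and Cgn, Crb3 and Ap1m2 did not pass. When probe sets were averaged, differences were 2.21 for Dsp. Raising c to 50 gave 0.20 for Prss8 and 0.20 for Cldn6. A call was lost for Cldn6 without ES replicate 1 or ES replicate 2 or RDL replicate 3 (0.23 to 0.31). The threshold was not reached with all 15 arrays in the fit for Cldn6.

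Mesenchymal genes were higher in 11 of 13 cases and lower in none, with a median of 1.96. After Cdh2 these were led by the homeobox gene Prrx2 (3.65 ± 0.09) and by Twist1, a repressor of epithelial genes, with 177, 250 and 237 in RDL cells and 11.3, 14.7 and 12.8 in ES cells (3.19 ± 0.12). The matrix protease genes Mmp2 (3.02 ± 0.08) and Mmp14 (2.08 ± 0.11) and the cadherin gene Cdh11 (2.77 ± 0.09) rose, and Snai2 (-0.14) and Sparc (0.14) did not pass. Splicing regulators were split evenly, with 6 higher and 6 lower of 16 and a median of 0.10. That is near the shares over all genes tested, 32.1% higher and 34.6% lower. Mbnl3 (2.36 ± 0.14), Ptbp2 (1.69 ± 0.07) and Rbm24 (1.41 ± 0.11) rose. Elavl2 (-2.31 ± 0.09) fell, as did the epithelial splicing genes Rbm47 (-1.48 ± 0.08) and Esrp2 (-1.29 ± 0.09), with Mbnl2 (-1.20), Celf2 (-0.37) and Nova1 (-0.36). Rbfox2, Celf1, Qk and Srrm4 did not pass. Averaged over all probe sets of a gene, the difference was 1.30 for Mmp14, 1.46 for Cdh11, 1.11 for Ptbp2, 0.39 for Rbm24, -0.71 for Rbm47, -0.72 for Esrp2, -0.56 for Mbnl2 and -0.24 for Nova1. Set to 50, the constant c gave 2.10 for Twist1, 1.67 for Cdh11, 0.91 for Rbm24, -0.73 for Rbm47, -0.76 for Esrp2 and -0.24 for Nova1. Calls ended with all 15 arrays in the fit for Celf2.

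The matrix changed in composition. Collagens and other matrix genes were higher in 15 of 20 cases and lower in 1, with a median of 1.32. Fbn2, a fibrillin gene of embryonic tissue, had 525, 605 and 563 in RDL cells, against 38.3, 33.3 and 32.2 in ES cells (3.61 ± 0.09). The basement membrane collagen genes Col4a1 (3.32 ± 0.09) and Col4a2 (3.10 ± 0.11), the fibrillar collagen genes Col3a1 (2.67 ± 0.10) and Col1a2 (2.45 ± 0.11) and Ccn1 (2.69 ± 0.18) rose. For Ccn1 the RDL arrays spread over 561, 795 and 1082. Ccn2, the relative of Ccn1, was lower (-0.63), but the groups overlapped, with 112, 156 and 286 in RDL cells and 225, 268 and 334 in ES cells. RDL replicate 3 was the highest RDL array for both, and Ccn2 stood at -0.97 without it. Col6a2, Col9a1, Col12a1 and Col18a1 did not pass. Of 19 integrin and laminin genes 8 were higher and 6 lower, with a median of 0.11. Itga8 (3.63 ± 0.10) and Itga1 (1.76 ± 0.10) rose, while Itga6, a laminin receptor gene, had 147, 141 and 148 in RDL cells and 539, 546 and 452 in ES cells (-1.73 ± 0.09). Within the laminin network Lamb1 rose (2.12 ± 0.10), and Lamc1 (-1.62 ± 0.10) and the nidogen gene Nid1 (-3.02 ± 0.08) fell. Itgav (-0.30), Lamb2 (-0.53) and Nid2 (-0.25) were lower, and Itga3, Itga5, Itgb3, Lama5 and Hspg2 did not pass. As means of their probe sets, the values were 1.63 for Col3a1, 1.46 for Col1a2, -0.63 for Ccn2 (call lost), 2.01 for Itga8, -1.75 for Nid1 and -0.04 for Itgav (call lost). Under c = 50 differences were 1.08 for Itga1. The threshold was missed by Ccn2 without ES replicate 2 or ES replicate 3 or RDL replicate 1 or RDL replicate 2 (-0.64 to -0.34). There was no call with all 15 arrays in the fit for Ccn2, Itgav and Nid2, and with the CDL arrays added or no filter on dim genes or no intensity trend for Ccn2.

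Actin contractile genes rose with few exceptions, with 16 higher and 2 lower of 18 tested and a median of 1.92. Tagln, an actin-binding protein of smooth muscle, had 4106, 4027 and 3916 in RDL cells, against 51.2, 53.6 and 51.7 in ES cells (5.96 ± 0.07). The cardiac actin gene Actc1 had 1768, 1436 and 1454 in RDL cells, against 21.2, 16.2 and 14 in ES cells (5.72 ± 0.11). The skeletal actin gene Acta1 had 2201, 2571 and 2146 in RDL cells, against 32.4, 33.4 and 44.6 in ES cells (5.56 ± 0.11). Muscle actins of different tissues were therefore high together, on every RDL array and on no ES array. Myl9, a regulatory myosin light chain (5.34 ± 0.08), the smooth muscle actin gene Acta2 (5.25 ± 0.10) and the tropomyosin gene Tpm1 (3.63 ± 0.06) rose as well. The atrial myosin light chain gene Myl7 fell (-1.58), and so did Cnn3 (-0.34). Over all probe sets on average, the difference was 1.79 for Acta2.

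Promoters of these genes were searched for the CArG box, the site of serum response factor (Srf), which is known to drive actin genes. The motif was chosen after the values were seen. Of 17 contractile genes with a RefSeq window of 250 bases before to 50 after the start (GRCm38.p6), 7 held a CArG box on either strand (41.2%), against 1.38% of the windows of all genes tested and 1.57% of all windows. The 7 were Acta1, Actc1, Cnn2, Myl7, Myl9, Srf and Vcl. Of these, Cnn2 (2.21), Srf (1.63) and Vcl (1.18) rose, while Myl7 fell although its window holds the box. The windows of the 3 with the largest increases are printed because they hold the box, with the box in capitals: Actc1 at chr2:114052826-114053125 on the minus strand, Acta1 at chr8:123894726-123895025 on the minus strand and Myl9 at chr2:156775214-156775513 on the plus strand.
Actc1: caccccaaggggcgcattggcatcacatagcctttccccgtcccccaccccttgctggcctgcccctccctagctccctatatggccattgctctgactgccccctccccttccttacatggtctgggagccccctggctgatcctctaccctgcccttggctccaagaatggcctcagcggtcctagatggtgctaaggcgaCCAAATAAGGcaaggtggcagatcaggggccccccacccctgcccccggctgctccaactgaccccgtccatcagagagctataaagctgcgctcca
Acta1: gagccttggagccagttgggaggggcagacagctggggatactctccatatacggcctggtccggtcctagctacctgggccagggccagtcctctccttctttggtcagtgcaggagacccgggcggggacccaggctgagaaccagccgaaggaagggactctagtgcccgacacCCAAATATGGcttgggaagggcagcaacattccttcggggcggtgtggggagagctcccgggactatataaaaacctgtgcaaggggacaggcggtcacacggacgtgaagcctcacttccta
Myl9: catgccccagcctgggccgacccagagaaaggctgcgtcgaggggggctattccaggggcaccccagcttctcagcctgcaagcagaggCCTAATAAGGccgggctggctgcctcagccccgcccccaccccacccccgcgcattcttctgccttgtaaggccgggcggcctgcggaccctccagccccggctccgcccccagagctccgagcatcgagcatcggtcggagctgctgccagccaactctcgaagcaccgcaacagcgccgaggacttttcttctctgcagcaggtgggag
The boxes start 47, 73 and 161 bases before the start of Actc1, Acta1 and Myl9. With all probe sets of a gene averaged, differences were 1.07 for Srf and 0.70 for Vcl.

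The motif ATGCAAA, part of the octamer that Oct4 binds, was searched on both strands and was held by 2 of 12 windows of naive factors (16.7%), against 3.15% of windows of all genes tested and 4.59% of all windows. It was not particular to them, since 2 of 11 windows of the posterior presomitic list held it too (18.2%). The 2 of the naive factors were Nanog (chr6:122707239-122707538, plus strand) and Zfp42 (chr8:43306960-43307259, minus strand), whose matches lie on the opposite strand and read TTTGCAT, in capitals here.
Nanog: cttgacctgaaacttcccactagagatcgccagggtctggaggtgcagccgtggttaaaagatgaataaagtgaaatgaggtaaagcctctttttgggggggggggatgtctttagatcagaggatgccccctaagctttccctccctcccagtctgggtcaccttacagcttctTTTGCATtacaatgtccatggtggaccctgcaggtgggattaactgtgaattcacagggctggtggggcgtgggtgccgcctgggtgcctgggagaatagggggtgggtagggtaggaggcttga
Zfp42: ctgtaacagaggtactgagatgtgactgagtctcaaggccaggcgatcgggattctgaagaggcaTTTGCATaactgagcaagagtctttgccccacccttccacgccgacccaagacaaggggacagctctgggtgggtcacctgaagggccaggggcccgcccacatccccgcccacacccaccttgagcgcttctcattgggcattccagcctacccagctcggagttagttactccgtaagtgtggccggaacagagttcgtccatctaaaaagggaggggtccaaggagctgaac
Over the genes that differed at least 2-fold the motif did not separate the directions: it stood in 3.82% of windows of genes that were higher and in 3.87% of those that were lower. The Wnt effector motif CTTTGAT stood in 2.84% of windows of higher genes and 1.88% of lower ones, against 2.62% of all tested. The nuclear receptor motif AAGGTCA, which Esrrb binds, stood in 2.29% of windows of higher genes and 4.26% of lower ones, against 2.98% of all tested. AGGTGTG, also searched, stood in 4.69% of windows of higher genes and 5.95% of lower ones, against 4.38% of all tested. GTGGGAA stood in 6.0% of higher and 6.84% of lower ones, against 6.1% of all tested. It was held by 3 of 11 windows of the posterior presomitic list (27.3%) and by 2 of 12 of the naive factors (16.7%). For the CArG box the shares were 2.73% of higher and 1.78% of lower ones, against 1.38% of all tested. All these windows are short and hold no distal enhancers.

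Hox genes were read by paralogue group. All 13 tested genes of paralogue groups 1 to 5 were higher in RDL cells, with a median of 2.49. Of 9 tested genes of groups 6 to 9, 6 were higher and none was lower, with a median of 1.17. In groups 10 to 13, 9 of 10 genes were left out as dim, with mean signals of at most 21.3 in RDL cells and 31.8 in ES cells. The 1 tested, Hoxc13, fell, with 18.4, 22.5 and 16.9 in RDL cells and 107, 112 and 123 in ES cells (-1.99 ± 0.10). In clusters A and B, 3 of 6 and 3 of 7 tested genes had passed the filter through the RDL arrays alone. In clusters C and D these were 1 of 6 and 3 of 4. Hoxc13 had passed through the ES arrays alone, so the direction of all these genes was set by the filter. Hoxb1, the most anterior gene of its cluster, had 1418, 1716 and 1300 in RDL cells, against 6.84, 6.89 and 6.47 in ES cells (6.26 ± 0.10). Hoxa5 (4.79 ± 0.12), Hoxb2 (3.83 ± 0.22) and Hoxb3 (3.43 ± 0.12) rose, and Hoxd1 (3.48 ± 0.10) led the D cluster together with Hoxd9. Hoxd9 was the most posterior gene that rose strongly, with 606, 800 and 649 in RDL cells and 39.7, 47.8 and 47.8 in ES cells (3.59 ± 0.11). Its paralogues did not follow in equal measure: Hoxb9 rose by less (1.17 ± 0.13), and Hoxa9 (0.17) and Hoxc9 (0.20) did not pass, nor did Hoxc6 (0.15). For c of 50 the values were -1.24 for Hoxc13 and 0.74 for Hoxb9.

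**Figure D3:**
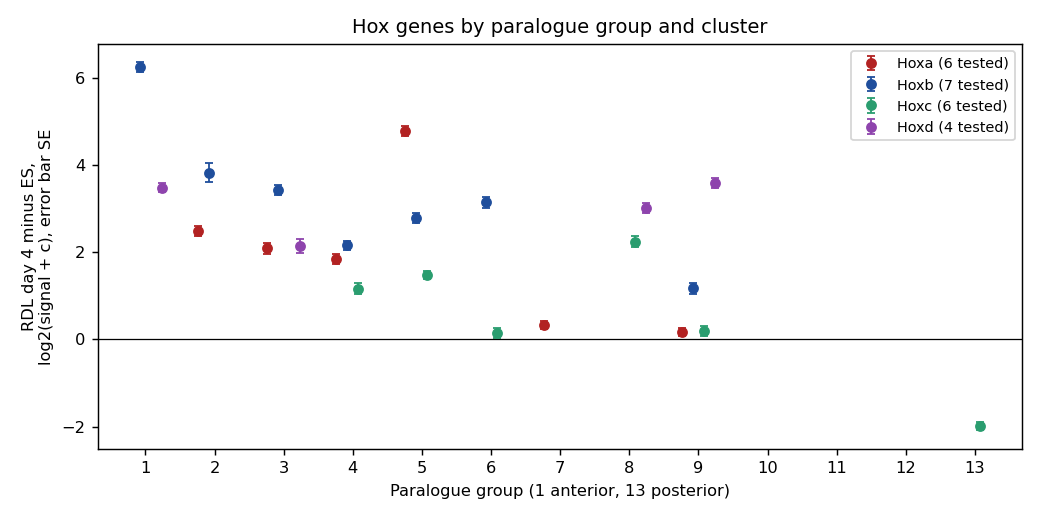
Difference RDL day 4 minus ES of the 23 Hox genes tested, on the log2(signal + c) scale with its SE (n = 3 arrays each), by paralogue group and cluster. Groups 1 to 5 are all above 0, with Hoxb1 highest (6.26); the 9 dim genes of groups 10 to 13 are not drawn, and Hoxc13 lies at -1.99.

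Hox cofactors rose in 6 of 8 cases and fell in 2, with a median of 1.40. Meis1, a TALE homeobox partner of Hox proteins, had 289, 294 and 290 in RDL cells, against 11, 7.93 and 9.44 in ES cells (3.78 ± 0.09). Meis2 (2.50 ± 0.07), Pbx3 (2.47 ± 0.10), Pknox2 (1.78 ± 0.11) and Pbx2 (1.02 ± 0.07) rose, while Tgif1 (-0.64 ± 0.10) and Pknox1 (-0.36) fell. The mean over probe sets gave 1.76 for Meis1 and 0.94 for Pknox2. Using 50 as c gave 2.52 for Meis1.

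Chromatin genes differed in both directions, as did all genes tested, of which 32.1% were higher and 34.6% lower. Of 13 genes of the DNA methylation machinery 7 were lower and 5 higher, with a median of -0.42. Tet2, an enzyme that oxidises methylcytosine, had 65.1, 68.6 and 61.7 in RDL cells, against 1508, 1304 and 1225 in ES cells (-4.12 ± 0.09). Tet1 had 214, 182 and 175 in RDL cells, against 1243, 1160 and 1051 in ES cells (-2.52 ± 0.09). Dnmt3l, the cofactor of the de novo methyltransferases, had 18.9, 20.1 and 21.6 in RDL cells, against 453, 430 and 469 in ES cells (-3.82 ± 0.09). The methyltransferase genes themselves moved little: Dnmt3a (0.57) and Dnmt3b (0.22) were slightly higher, and Dnmt1 did not pass (-0.04). Zfp57, which protects imprints (-2.33 ± 0.09), and Gadd45b (-1.74 ± 0.19) fell, while Uhrf2 (1.45 ± 0.11), Gadd45a (0.66) and Mbd3 (0.36) rose. Also lost were calls with all 15 arrays in the fit for Dnmt3b and Mbd3.

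Polycomb and trithorax genes were lower in 12 and higher in 9 of 23 cases, with a median of -0.23. The chromobox subunits of Polycomb complex 1 were exchanged. Cbx7, the ES cell form, had 54.2, 49.5 and 44.0 in RDL cells, against 421, 392 and 466 in ES cells (-2.83 ± 0.10). Cbx2 had 340, 345 and 328 in RDL cells, against 83.2, 84.9 and 98.9 in ES cells (1.79 ± 0.09). The polyhomeotic subunits did the same, with Phc2 at 881, 953 and 891 in RDL cells and 156, 169 and 175 in ES cells (2.36 ± 0.08), and Phc1 lower (-1.44). In Polycomb complex 2 the accessory genes Mtf2 (-1.59 ± 0.10) and Jarid2 (-1.49 ± 0.06) and the core genes Suz12 (-1.31) and Eed (-1.13) fell. Of its 2 catalytic subunit genes Ezh2 was slightly higher (0.18). The other, Ezh1, was lower under every setting run (-1.29 to -0.44, adjusted p at most 6.35e-05, limma). Phc1, Suz12, Eed and Ezh1 were chosen after their values were seen. The demethylase gene Kdm5b fell (-1.5 ± 0.08). Kdm6b (0.78), Ring1 (0.76), Bmi1 (0.76), Kmt2d (0.47), Phf19 (0.26) and Kmt2a (0.25) rose, and Rnf2 (-0.12) and Pcgf2 (-0.16) did not pass. Taking the mean of all probe sets gave -0.96 for Cbx7, 0.92 for Cbx2, -0.51 for Eed, 0.31 for Kmt2d and 0.14 for Phf19 (call lost). No call was left for Ezh2 without ES replicate 1 or ES replicate 2 or RDL replicate 1 or RDL replicate 2 (0.14 to 0.18). No call was left for Phf19 without ES replicate 2 or ES replicate 3 or RDL replicate 1 (0.19 to 0.26). No call was left for Kmt2a without ES replicate 1 or ES replicate 2 or ES replicate 3 or RDL replicate 1 or RDL replicate 2 (0.18 to 0.26). Further calls were lost with all 15 arrays in the fit for Ezh2, Kmt2d and Kmt2a, and with no intensity trend for Ezh2. Calls ended with quantile normalization for Phf19 and Kmt2a, and with no filter on dim genes for Kmt2a.

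**Figure D4:**
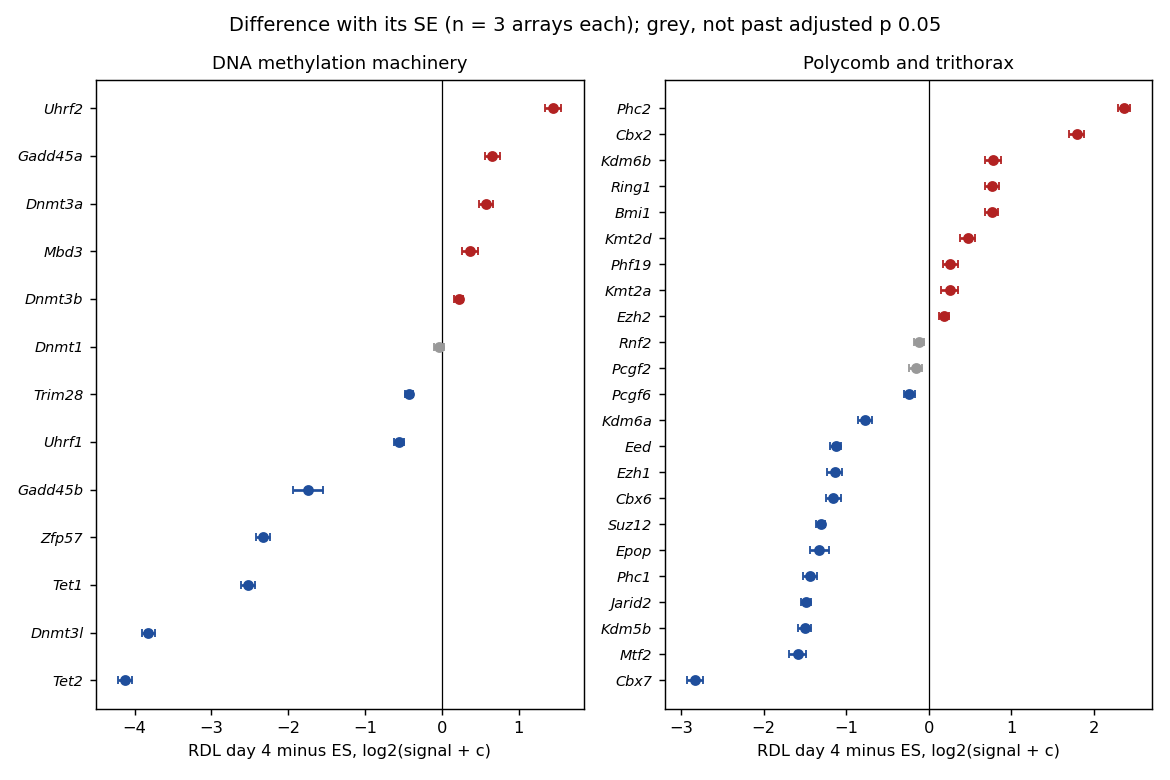
Difference RDL day 4 minus ES of 13 genes of the DNA methylation machinery (left) and 23 Polycomb and trithorax genes (right), on the log2(signal + c) scale with its SE (n = 3 arrays each). Red genes were higher in RDL cells, blue genes lower and grey genes not past the threshold; Tet2 (-4.12) and Cbx7 (-2.83) lie farthest to the left, and Uhrf2 (1.45) and Phc2 (2.36) farthest to the right.

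Nucleosome remodellers, high mobility group genes and histone variants were higher in 18 of 22 cases and lower in 1, with a median of 0.53. Hmga2, an architectural protein of embryonic tissue and a let-7 target, had 4542, 4523 and 5062 in RDL cells, against 731, 795 and 753 in ES cells (2.61 ± 0.06). Hmgn3 (2.87 ± 0.09), the remodeller genes Chd7 (1.91 ± 0.10) and Smarca2 (1.55 ± 0.10), the linker histone gene H1f2 (1.32 ± 0.18) and Macroh2a2 (1.09 ± 0.10) rose. Ino80 fell (-0.63), and Chd3, H2az1 and H3f3b did not pass. All 7 tested oncofetal genes, several of them let-7 targets, were higher, with a median of 0.59. Beside Hmga2 and Lin28a they included Arid3b (1.62 ± 0.08), Igf2bp1 (0.59 ± 0.07), Igf2bp3 (0.52 ± 0.07) and Trim71 (0.42 ± 0.08). Probe set means gave 0.76 for Smarca2 and 0.84 for Arid3b. With c at 50 differences were 0.88 for Smarca2. The threshold was not reached with all 15 arrays in the fit for Trim71.

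Of 19 enzymes of threonine, glycine and methionine metabolism 12 were lower and 5 higher, with a median of -0.44. Bhmt, which remakes methionine from homocysteine, had 20.2, 22.8 and 20.2 in RDL cells, against 2353, 2406 and 2279 in ES cells (-6.13 ± 0.08). Its relative Bhmt2 (-3.89 ± 0.09), the enzymes Cbs (-2.69 ± 0.09) and Cth (-2.06 ± 0.08), which turn homocysteine into cysteine, Gldc (-1.74 ± 0.07) and Shmt1 (-1.33 ± 0.07) fell. The serine synthesis genes Phgdh (0.83) and Psat1 (0.51) rose, with Tyms (0.40), Mthfd1l (0.33) and Mat2b (0.21), and Shmt2 (0.03) and Mthfd2 (-0.13) did not pass. Of 20 genes of glycolysis and glucose transport 14 were lower and 4 higher, with a median of -0.45. Pfkp, a phosphofructokinase gene, had 47.5, 43.6 and 44.9 in RDL cells, against 1178, 1074 and 1079 in ES cells (-4.28 ± 0.08). The glucose transporter gene Slc2a3 had 2448, 2342 and 3006 in RDL cells, against 9603, 9530 and 9862 in ES cells (-1.90 ± 0.08). The other main transporter, Slc2a1, rose instead (0.52), with Pfkfb3 (0.78), Aldoc (0.56) and Eno3 (0.41). Hk1 (-2.11 ± 0.13), Hk2 (-1.46 ± 0.06), Ldhb (-1.47 ± 0.07) and Pdk1 (-1.33 ± 0.11) fell, and Ldha (-0.01) and Slc16a1 (-0.04) did not pass. When probe sets were averaged, differences were 0.10 for Tyms, -2.37 for Pfkp, 0.39 for Pfkfb3 and 0.31 for Aldoc. A constant c of 50 gave 0.21 for Tyms and 0.48 for Pfkfb3. The test was no longer passed by Mat2b without ES replicate 2 or ES replicate 3 or RDL replicate 2 or RDL replicate 3 (0.14 to 0.24). Calls ended with all 15 arrays in the fit or no intensity trend for Mat2b.

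Respiratory chain genes were lower in 14 of 21 cases and higher in 3, with a median of -0.28. Cox7a1, a tissue-specific subunit of cytochrome oxidase, stood alone among them, with 20.6, 23.0 and 25.8 in RDL cells and 664, 752 and 781 in ES cells (-4.38 ± 0.10). The next largest decreases were those of Atp5g1 (-0.82 ± 0.07) and Uqcrc1 (-0.61 ± 0.07), and Cycs (0.24), Ndufa1 (0.16) and Cox7a2 (0.14) were higher. Of 20 genes of cholesterol and fatty acid synthesis 9 were higher and 6 lower, with a median of 0.13. The sterol enzyme genes Sc5d (1.16 ± 0.08), Cyp51 (1.08 ± 0.08) and Hmgcs1 (0.56 ± 0.05) rose, while the fatty acid genes Elovl6 (-0.72 ± 0.06), Scd1 (-0.56 ± 0.06), Acly (-0.33) and Fasn (-0.21) fell, as did Srebf1 (-0.42) and the sterol gene Fdft1 (-0.61 ± 0.07). Averaged over all probe sets of a gene, the difference was -0.39 for Atp5g1, 0.55 for Sc5d, -0.17 for Acly and -0.36 for Fdft1. The threshold was missed by Cox7a2 without ES replicate 3 or RDL replicate 2 (0.11 to 0.12); Fasn without ES replicate 1 or ES replicate 3 or RDL replicate 1 (-0.20 to -0.14). There was no call with all 15 arrays in the fit for Ndufa1, Fasn and Srebf1, and with no intensity trend for Ndufa1 and Cox7a2. Also lost were calls with quantile normalization for Cox7a2.

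Among 25 cyclins, kinases and inhibitors of the cell cycle 13 were lower and 7 higher, with a median of -0.25. Ccnd2, a D-type cyclin, had 1681, 1734 and 1600 in RDL cells, against 19.5, 24.7 and 29.8 in ES cells (5.51 ± 0.10), while Ccnd1 did not pass (0.16). The inhibitor gene Cdkn1c, which is imprinted, had 407, 510 and 531 in RDL cells, against 31.4, 31.4 and 40.5 in ES cells (3.39 ± 0.12). Thus a cyclin gene and an inhibitor gene were both raised on every RDL array. Myc (1.80 ± 0.20), Ccne2 (1.21 ± 0.09), Cdk6 (1.04 ± 0.09), Mycn (1.03) and Cdk4 (0.49) rose, and the pocket protein gene Rbl2 fell (-1.47 ± 0.10). Genes of replication and mitosis were lower in 14 of 23 cases and higher in 3, with a median of -0.33, by small amounts: Orc1 (-1.23 ± 0.08), Aurka (-1.05 ± 0.10) and Mcm3 (-0.92 ± 0.07) led, and Mki67 (0.47), Aurkb (0.27) and Cdc20 (0.22) were higher. Of 16 p53 targets and apoptosis genes 9 were higher and 4 lower, with a median of 0.29. The survival gene Bcl2 (2.21 ± 0.09) and its antagonist Bcl2l11 (1.70 ± 0.12) both rose, with Perp (1.89 ± 0.14), and Trp53inp1 (-0.97 ± 0.07), Cdkn1a (-0.51), Mcl1 (-0.39) and Mdm2 (-0.25) fell. As means of their probe sets, the values were 0.63 for Cdk6, 0.58 for Mycn, -0.87 for Rbl2, -0.74 for Orc1, 0.11 for Aurkb (call lost), 0.13 for Cdc20 (call lost), 0.80 for Bcl2, 1.01 for Bcl2l11, -0.55 for Trp53inp1 and -0.14 for Mdm2 (call lost). At c = 50 the difference was -0.77 for Rbl2 and 1.40 for Bcl2. Calls were not kept for Aurkb without ES replicate 1 or ES replicate 2 or RDL replicate 2 (0.20 to 0.26); Mdm2 without ES replicate 2 (-0.22). Further calls were lost with all 15 arrays in the fit for Aurkb and Cdc20.

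Imprinted genes expressed from either parental allele were mostly higher in RDL cells. Of 12 paternally expressed genes 10 were higher and 1 lower (median 2.08), and of 10 maternally expressed genes 8 were higher and 1 lower (median 1.24). Peg3, paternally expressed, had 5055, 5277 and 4680 in RDL cells, against 378, 364 and 338 in ES cells (3.75 ± 0.07). Phlda2, maternally expressed, had 2037, 2138 and 2072 in RDL cells, against 61.1, 73.2 and 80.6 in ES cells (4.64 ± 0.09). Ndn (4.43 ± 0.08), Nnat (3.33 ± 0.11), Mest (2.76 ± 0.11) and Grb10 (2.65 ± 0.06) rose. Plagl1, a paternally expressed zinc finger gene, fell, with 274, 243 and 273 in RDL cells and 2702, 2721 and 2521 in ES cells (-3.27 ± 0.07). Ube3a was lower (-0.48), and Snrpn (-0.16) and Slc22a18 (-0.02) did not pass. These arrays do not tell alleles apart. Over all probe sets on average, the difference was 2.36 for Peg3, 2.63 for Ndn, 1.42 for Grb10, -1.62 for Plagl1 and -0.14 for Ube3a (call lost). Raising c to 50 gave 2.18 for Nnat.

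Stress and metal response genes were lower in 10 of 17 cases and higher in 3, with a median of -0.52. Hspb1, a small heat shock protein gene, had 520, 508 and 635 in RDL cells, against 7994, 7906 and 8801 in ES cells (-3.87 ± 0.08). The metallothionein genes Mt2 (-3.18 ± 0.16) and Mt1 (-2.53 ± 0.21) fell, and for Mt1 the RDL arrays spread widely, at 155, 273 and 359 against 1422, 1493 and 1580 in ES cells. Ddit4, an inhibitor of mTOR, rose (2.01 ± 0.14), with Txnrd1 (0.48) and Hspa5 (0.22), and Trib3 (-1.53 ± 0.12) and Hspa1b (-1.47 ± 0.10) fell. Ribosomal protein genes, read as housekeeping genes, were called in 1 of 9 cases: Rps9 (0.13 ± 0.05) was higher and the 8 others did not pass, with a median of -0.06. With all probe sets of a gene averaged, differences were -1.31 for Mt1, 0.29 for Txnrd1, 0.34 for Hspa5 and -0.02 for Rps9. The test was no longer passed by Rps9 without ES replicate 1 or ES replicate 2 or RDL replicate 2 or RDL replicate 3 (0.10 to 0.12). Calls ended with all 15 arrays in the fit or no filter on dim genes or quantile normalization or no intensity trend for Rps9.

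**Figure D5:**
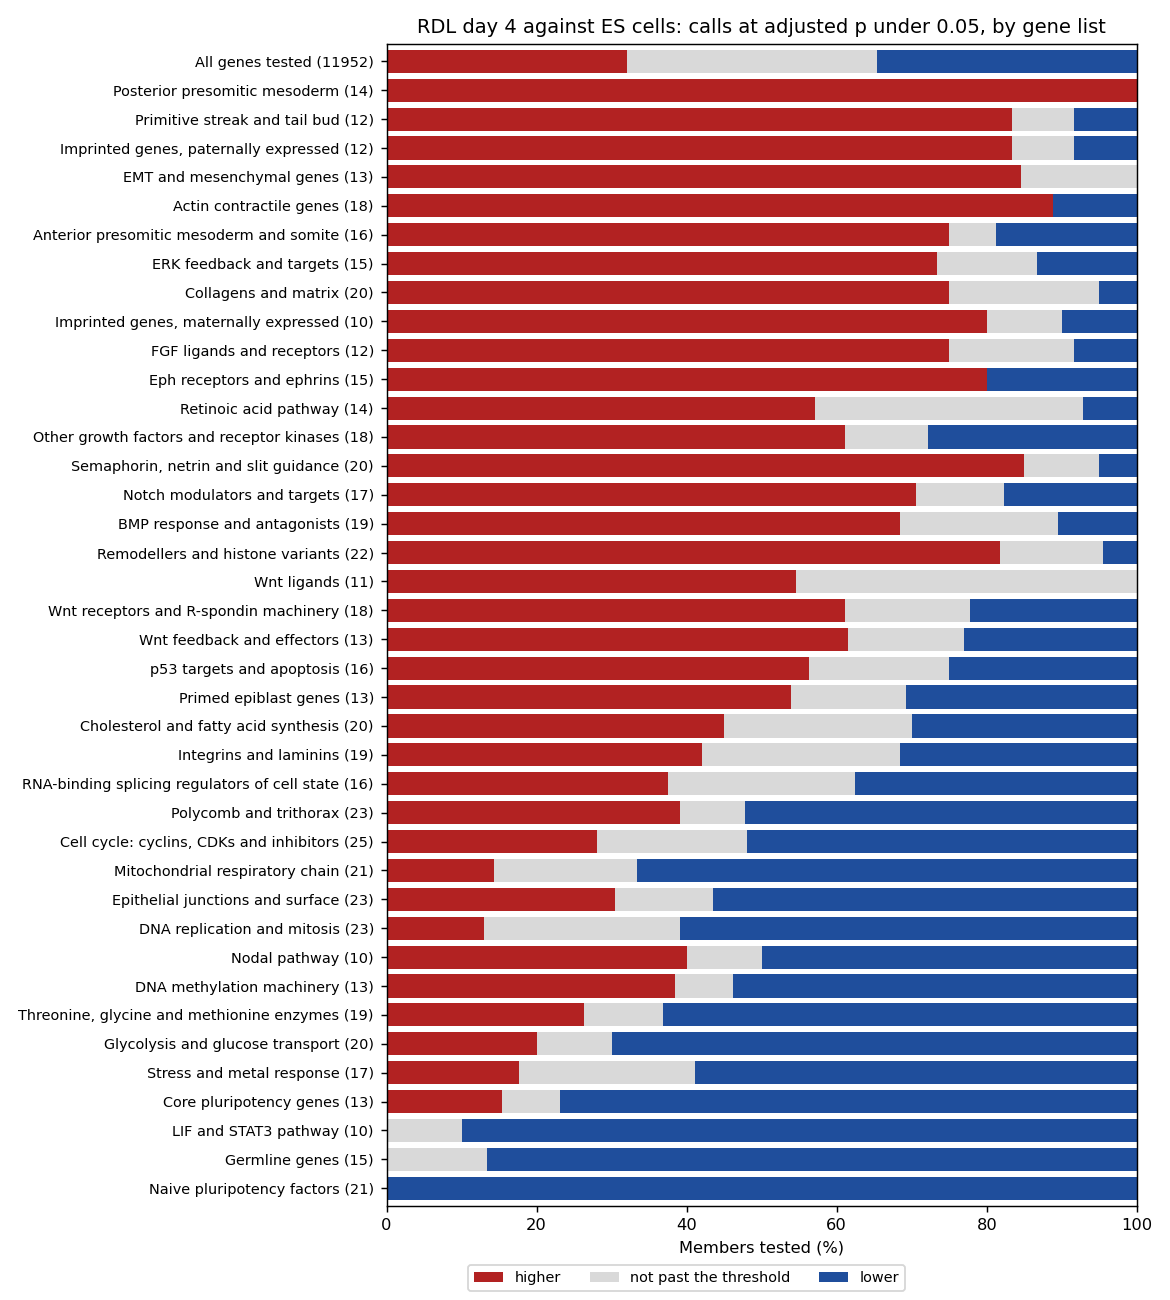
Share of tested members (horizontal, in percent) that were higher (red), not past the threshold (grey) or lower (blue) in RDL day 4 cells relative to ES cells, for every list with at least 10 tested members, ordered by median difference, with the number tested in brackets. All 11952 genes stand at the top as background, with 32.1% higher and 34.6% lower; naive pluripotency factors are at the bottom with all 21 lower.

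Markers of other cell types were read in both groups. Of 14 endothelial and blood markers 9 were left out as dim, with no dim member above 27.0 in RDL cells or 27.6 in ES cells on any array, and none of the 5 tested was higher (median -0.68). Among them Pecam1 (-1.97 ± 0.08) and Tek (-1.74 ± 0.08) fell, and Kdr (0.05) and Runx1 (-0.13) did not pass. Of the 5 tested, 2 had passed the filter through the ES arrays alone, so their direction was set by the filter. Lmo2, named above among the 25 largest increases, is not on this list. Of 11 neural markers 5 were dim and the 6 tested had a median of -0.11. Nes rose (1.01 ± 0.10), Tubb3 (-3.59 ± 0.15) and Sox21 (-1.67 ± 0.09) fell, and Sox1 (-0.09) and Pax6 (0.06) did not pass. Of 14 lateral plate and cardiac markers 7 were dim and 4 were higher (median of those tested 0.40), led by Isl1, with 135, 196 and 135 in RDL cells and 18.3, 17.4 and 14.2 in ES cells (2.50 ± 0.13), and by Bmp4 (1.98 ± 0.10). Hand1 (0.05) and Foxf1 (0.12) did not pass. All 3 tested intermediate mesoderm markers, Lhx1, Emx2 (1.32 ± 0.15) and Osr1 (0.76 ± 0.10), were higher (median 1.32), and 3 more were dim. All 3 had passed the filter through the RDL arrays alone, so their direction was set by the filter. The mean over probe sets gave 0.56 for Nes. Set to 50, the constant c gave -1.11 for Pecam1, -0.97 for Tek, 1.61 for Isl1, 0.66 for Emx2 and 0.42 for Osr1.

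Of 12 primitive endoderm markers 6 were dim on all arrays, at no more than 29.5 in RDL cells and 27.0 in ES cells, and 5 were higher (median of those tested 1.64), among them Pdgfra, Col4a1 and Lamb1, which are also on the lists of growth factor receptors, collagens and laminins. Srgn fell (-2.78 ± 0.08). All 3 tested genes of the two-cell-like state were lower (median -0.71). Of 8 tested markers of definitive endoderm and notochord 3 were higher and 2 lower (median -0.12), and of 5 of the neural crest 1 was higher and 2 were lower (median -0.14). Of 5 tested trophoblast markers 1 was higher and 3 were lower (median -0.20), with Cdx2, also a caudal gene of the tail bud, higher (2.04 ± 0.09) and Tfap2c lower (-3.96 ± 0.11). The embryonic fibroblast list was read because ES cells had been kept on feeders. All 7 tested members were higher in RDL cells (median 2.45) and the other 7 were dim. Their summed signal, over the tested members, lay between 8443 and 8692 on the RDL arrays and between 325 and 347 on the ES arrays. The list shares Tagln, Acta2, Col1a2 and Col3a1 with other lists here, and the part of fibroblasts in the results was not tested. Taking the mean of all probe sets gave 1.33 for Cdx2 and -2.51 for Tfap2c. Under c = 50 differences were -1.81 for Srgn.

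Cells grown with the GSK3 inhibitor CHIRON99021 at 1 µM in place of Rspo3 (CDL medium), of the same line, day and reporter sort, were the most similar group. Against them, the RDL cells had 220 genes higher (1.84%) and 262 lower (2.19%) by limma over the same 11952 genes, 4.03% in all. CDL replicate 1 stood apart from its group mates, nearer to ES cells, and without it 272 genes were higher (2.28%) and 339 lower (2.84%). The counts rest on few arrays: they were 95 higher and 118 lower without RDL replicate 1, 50 and 80 without RDL replicate 2, and 93 and 149 without RDL replicate 3. Without CDL replicate 2 they were 80 higher and 94 lower, and without CDL replicate 3 they were 136 and 233. Msgn1 stood at 196 ± 46.6 in RDL cells, 337 ± 27.4 in CDL cells and 29.1 ± 5.99 in ES cells (SD, n = 3). Genes are named here if they also passed against ES cells, with clone and predicted-gene symbols passed over. Among these Meox1 had the largest excess in RDL cells, with 662, 618 and 463 in RDL cells and 102, 84.8 and 105 in CDL cells (difference 2.42, adjusted p = 4.06e-04, limma). The next were Tcf15, a factor of somite epithelialisation (1.96), Ripply2 (1.69), Dmrt2 (1.67), Nr2f2 (1.65), Plat (1.61) and Meis1 (1.60), with Efnb2 (1.54), Cryab (1.5) and Pcdh8 (1.45). These are genes that were also higher in RDL cells than in ES cells.

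On the other side, the RDL cells were lower than CDL cells in the metallothionein genes Mt1 (-2.07) and Mt2 (-1.80), in Defa31 (-1.79), Spx (-1.71), Stmn2 (-1.52) and Cpxm2 (-1.46), and in Apoe (-1.40) and Uap1l1 (-1.37). Pou5f1 had 176, 215 and 213 in RDL cells, against 1277, 486 and 424 in CDL cells (-1.62), and the difference was -1.13 without CDL replicate 1. Cdh1 had 358, 411 and 499 in RDL cells, against 1512, 1104 and 906 in CDL cells (-1.43), and -1.23 without that replicate. CDL replicate 1 was the highest CDL array for both, and every CDL array lay above every RDL array. Pcdh8 differed by 1.04 without CDL replicate 1. The 10 genes named in each direction passed the test with and without CDL replicate 1. With other arrays left out, Pcdh8 no longer passed without any 1 of the 3 RDL arrays or without CDL replicate 2 or 3 (1.28 to 1.69, adjusted p = 0.0551 to 0.182, limma). Pou5f1 did not pass without any 1 of the RDL arrays or without CDL replicate 2 (-1.81 to -1.53, adjusted p = 0.07995 to 0.154, limma), and Plat did not without RDL replicate 2 (1.60, adjusted p = 0.0504, limma). A replicate block in the fit also ended the call of Pou5f1 (-1.62, adjusted p = 0.0626, limma). Defa31, Spx and Cpxm2 were higher in RDL cells than in ES cells although lower than in CDL cells. The media differ in holding Rspo3 (RDL) or CHIRON99021 (CDL), and both comparisons use the same RDL arrays.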

How the data were processed

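RNA of mouse ES cells and their derivatives was amplified in 2 cycles, labelled with biotin and hybridised to Affymetrix arrays, per the labels' protocols. RNA was isolated with either of 2 kits, and the labels do not say which was used for which sample. The deposited values are MAS5 signal intensities on a linear scale, per the submitters' processing notes, and no version is given in the sources used here. The labels call replicates biological, and p-values measure the spread between these arrays. The number of arrays limits the precision.

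Values were transformed to log2(signal + c), with c = 12.6, the median over the 6 arrays of their 25th percentile. Genes were named by probe sets with 1 symbol, and the probe set with the highest mean stood for its gene. A gene was kept if above the array's median on at least 3 of 6 arrays, which left 11952 genes and left out 6241 as dim. The RDL and ES arrays alone were fitted with limma 3.58.1 in R 4.3.3 (lmFit, and eBayes with an intensity trend), because CDL day 4 replicate 1 stands apart from its group. P-values were adjusted by Benjamini-Hochberg over all genes, with a threshold of 0.05. The procedure was tested on simulated data. Figures used matplotlib 3.10.9.

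The members and lists were chosen with earlier results of these data known. Named were the 25 largest differences each way, and up to 6 members of most lists. Members against a list's majority or not past the threshold were named for many lists and not for all. Msgn1, Tbx6, Pou5f1, Nanog and Sox2 were named too. So were up to 15 genes switched on or off and 10 genes with probe sets called both ways. The 10 largest RDL minus CDL differences each way were taken among genes that also passed against ES cells. Clone and predicted-gene symbols were passed over. Of 925 distinct list members 864 were matched and 727 tested. Promoter windows are those of RefSeq for GRCm38.p6. Alternatives were the arrays fitted, c, the filter, the choice of probe set, quantile normalization, the trend, a replicate block and each array left out.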

Additional observations from a re-analysis of the deposited data

How the results depend on the processing

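The RDL minus ES counts stayed within 1.5 times of 3838 higher and 4135 lower under every alternative run. With each array left out in turn they ranged over 3522 to 3899 higher and 3844 to 4179 lower. A filter at the 75th percentile, which tests 7584 genes, gave 2675 higher and 2930 lower. The RDL minus CDL counts were less stable: with 1 array left out, 50 to 272 genes were higher and 80 to 339 lower, against 220 and 262 with all arrays, and fewer samples enter each such fit. Of the values followed gene by gene for RDL minus ES, 259 no longer passed the threshold, 62 newly passed and 11581 kept direction and side. The sign turned in 5 values with a call before or after, and in 105 values of 58 genes with no call in either fit. For the 20 genes followed for RDL minus CDL, 11 values no longer passed and 169 kept direction and side. The 5 turned when probe sets were averaged, to 0.0083 for Ddx49, -0.25 for Dnajb1, -0.058 for Kmt5b, -0.24 for Qk and -0.015 for Rps9, and the cause was not tested. A replicate block gave 3853 higher and 4135 lower for RDL minus ES, and 218 higher and 244 lower for RDL minus CDL. The block ended the calls of Pou5f1 for RDL minus CDL (-1.62, adjusted p = 0.0626, limma) and of Lrp5 (-0.20), E2f1 (-0.25), Esx1 (-0.20) and Zmat3 (0.18) for RDL minus ES. Same-numbered arrays had residual correlations of 0.13, -0.09 and 0.10 between RDL and ES, and the labels do not say whether the numbers pair the samples. Between RDL and CDL they were 0.101, 0.244 and 0.0969, so that 1 pair was not over 0.1, although every array correlated best with its own number, which is a hint from the data and not from the design. Dim genes are limited by signal near the array minimum, and changes of genes dim in 1 group are understated by the constant.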

Other observations

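Probe sets of 1 gene could differ in direction. Among 5193 genes with several probe sets above the filter, 233 (4.49%) had at least 1 called higher and at least 1 called lower in RDL cells than in ES cells, while 62.2% of all probe sets tested were called. In 36 genes both differences were at least 0.5 on the log2(signal + c) scale. For Zmynd8, a chromatin reader, 1 probe set averaged 1473 in RDL cells and 525 in ES cells (1.46), and another 143 in RDL cells and 318 in ES cells (-1.09). For Nfe2l2, a factor of the oxidative stress response, 1 probe set averaged 49.9 in RDL cells and 16.6 in ES cells (1.08), and another 388 in RDL cells and 1178 in ES cells (-1.58). For Tardbp, an RNA-binding protein, the means were 634 in RDL cells and 305 in ES cells (1.03) for 1 probe set, and 271 in RDL cells and 504 in ES cells (-0.87) for another. The arrays of the 2 groups did not overlap for any of these probe sets. Nup98 (0.92 and -0.95) and Prepl (0.82 and -1.13) showed the same split, as did Tex9 (0.91 and -0.78), Ddx49 (0.77 and -0.77), Kmt5b (0.88 and -0.76), Nrf1 (0.70 and -0.84) and Il6st (0.70 and -0.92).

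Promoter windows of genes that differed at least 2-fold were unlike in CpG content. Those of genes higher in RDL cells had a median of 22 CpG dinucleotides per 300 bases, those of genes lower in RDL cells 17, and those of all genes tested 21. Windows with under 5 CpG made up 5.46% of those of higher genes, 13.8% of those of lower genes and 7.29% of those of all genes tested.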
